A study of Macaca fascicularis with 32 samples.

Results

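The genes TF, TFRC, FTH1, SLC40A1, SLC11A2, ACO1 and IREB2, which move, store or sense iron, were followed across the cell classes of 3 brain regions of the cynomolgus macaque (Macaca fascicularis). They were taken by gene symbol, and all 7 were present, each in 1 row, among the 22316 genes of the count tables. The substantia nigra (SN) contains the dopamine neurons of the midbrain, and the putamen (PUT) and caudate (CN, "Caudal nucleus" in the labels) receive their axons. PD monkeys had been given a virus (AAV) plus poly(ADP-ribose), which PARP enzymes make, as a model of Parkinson's disease, and CT monkeys were controls. The labels give no age, sex, dose or time, and do not say what CT monkeys received. They list 4 SN PD, 4 SN CT, 4 PUT PD, 8 PUT CT, 4 CN PD and 8 CN CT samples, but the counts come as 6 matrices, 1 per region and group, in which nuclei are not tied to monkeys. Each matrix was therefore 1 library, PD and CT were compared without replicates, and an effect of group cannot be told apart from one of monkey or library.

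Iron enters most cells bound to transferrin (TF), which is taken up by the transferrin receptor (TFRC), and leaves endosomes through the divalent metal transporter SLC11A2 (DMT1). Ferritin, of which FTH1 is the heavy chain, stores iron, and ferroportin (SLC40A1) is the exporter of iron. The iron regulatory proteins ACO1 (IRP1) and IREB2 (IRP2) bind elements in transcripts such as those of TFRC and FTH1 when iron is low, so that protein and transcript levels of these genes can differ. In the brain, oligodendrocytes make TF and need iron for myelin, microglia and macrophages take up and store iron, and the substantia nigra is rich in iron. FTH1 has many processed copies in primate genomes, so its counts depend on how reads shared with copies were placed.

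Nuclear transcripts were counted as UMIs (unique molecular identifiers, 1 per captured molecule), and 52728 of 56659 barcodes were retained, with 7173 to 9698 nuclei and median depths of 1170 to 3022 UMIs per library. 385 barcode sequences occurred in 2 libraries and 1 in 3. Nuclei were assigned to classes by marker genes, hence "-like", and clustering left out the 7 genes and a wider iron list. Dopaminergic neuron-like nuclei were found only in SN (278 in PD, 358 in CT), and spiny projection neuron (SPN)-like nuclei, the main striatal neurons, lay almost wholly in PUT and CN (0 to 4 nuclei of each SPN class in an SN library). Levels are UMIs of a gene per 1000000 UMIs of the class in a library (CPM). Intervals in brackets are 95% intervals that cover counting error only, and fewer cells of a kind cannot be told apart from less RNA per cell within a class. A PD over CT ratio was computed where a class had at least 100 nuclei in both libraries and the gene at least 50 UMIs over both. A ratio is called past the fold at 1.5 or more, or at its inverse or less. No test was possible with 1 library a group.

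TF was the member most tied to a class. In oligodendrocyte-like nuclei it stood at 487.5 CPM in SN PD and 748.7 CPM in SN CT, at 315.7 CPM in PUT PD and 521.1 CPM in PUT CT, and at 240.8 CPM in CN PD and 432.6 CPM in CN CT. Every PD library was below the CT library of its region, although SN PD was above CN CT. Of the 9 classes measured per library, all others lay below these levels, the highest being microglia or macrophage-like nuclei of SN CT at 239.6 CPM, next to 240.8 CPM in oligodendrocyte-like nuclei of CN PD. Astrocyte-like nuclei spanned 20.4 to 218.4 CPM and precursor-like nuclei 5.05 to 197.0 CPM over the 6 libraries. Among neurons, dopaminergic neuron-like nuclei had 28.4 CPM in PD and 53.9 CPM in CT, other neuron-like nuclei of all regions 17.5 to 82.2 CPM and the 3 SPN classes 9.69 to 32.2 CPM. Below the oligodendrocytes, the ranges of neighbouring classes overlapped. In 4 classes too small to measure per library, pooled over the 6 libraries, TF was 187.2 CPM in 84 pericyte or smooth muscle-like, 223.4 CPM in 86 endothelial-like, 232.4 CPM in 111 T or NK lymphocyte-like and 297.0 CPM in 57 fibroblast-like nuclei.

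The ratio of TF in oligodendrocyte-like nuclei, PD over CT, was 0.651 (0.625 to 0.678) in SN, 0.606 (0.564 to 0.650) in PUT and 0.557 (0.505 to 0.614) in CN. TF was the 1 member past the fold in this class in SN (of 7 compared) and in CN (of 6), where 10.0% and 12.5% of all genes compared were past the fold downward. In PUT, TF and FTH1 were 2 of 6 members compared, against a background of 14.3%. The lower level of TF was not shared by the 11 oligodendrocyte markers, among them the myelin genes MBP and MOBP. None of the 11 was past the fold in any region, and their summed level had a ratio of 0.844 in SN, 1.01 in PUT and 1.04 in CN. MBP was the lowest of them in SN, at 7381 CPM in PD and 10112 CPM in CT (ratio 0.730). The share of nuclei with a TF UMI had the same order. After each nucleus was thinned to 1000 UMIs, which left 489 to 4219 oligodendrocyte-like nuclei a library, 36.0% of SN PD oligodendrocyte-like nuclei and 49.4% of those of SN CT held one, as did 26.1% and 39.0% in PUT PD and CT, and 21.7% and 34.2% in CN PD and CT. Without thinning the shares were 41.7% in SN PD and 55.7% in SN CT, 32.3% in PUT PD and 41.3% in PUT CT, and 23.7% in CN PD and 30.3% in CN CT. Among dopaminergic neuron-like nuclei of SN, thinned alike, 2.17% in PD and 5.04% in CT held one.

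PD and CT oligodendrocyte-like nuclei were spread differently over the clusters. Clusters with at least 50 nuclei of both libraries held 91.7% of these nuclei in SN PD and 74.1% in SN CT, 47.6% in PUT PD and 74.4% in PUT CT, and 42.0% in CN PD and 89.5% in CN CT. TF was lower in PD in all 10 such comparisons, with ratios of 0.381 to 0.810. In SN they were 0.666 to 0.810, within the fold in all but cluster 22.0 (0.666). They were 0.510 and 0.519 in PUT, and 0.381 and 0.599 in CN. In 9 of the 10 the counting interval lay wholly under 1. The exception was cluster 5.1 in SN, with 430.7 CPM in PD and 537.7 CPM in CT (0.801, 0.601 to 1.09). The farthest apart was cluster 6.0 in CN, with 224.5 CPM in PD and 588.8 CPM in CT, the CT value from 80 nuclei.

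**Figure D1:**
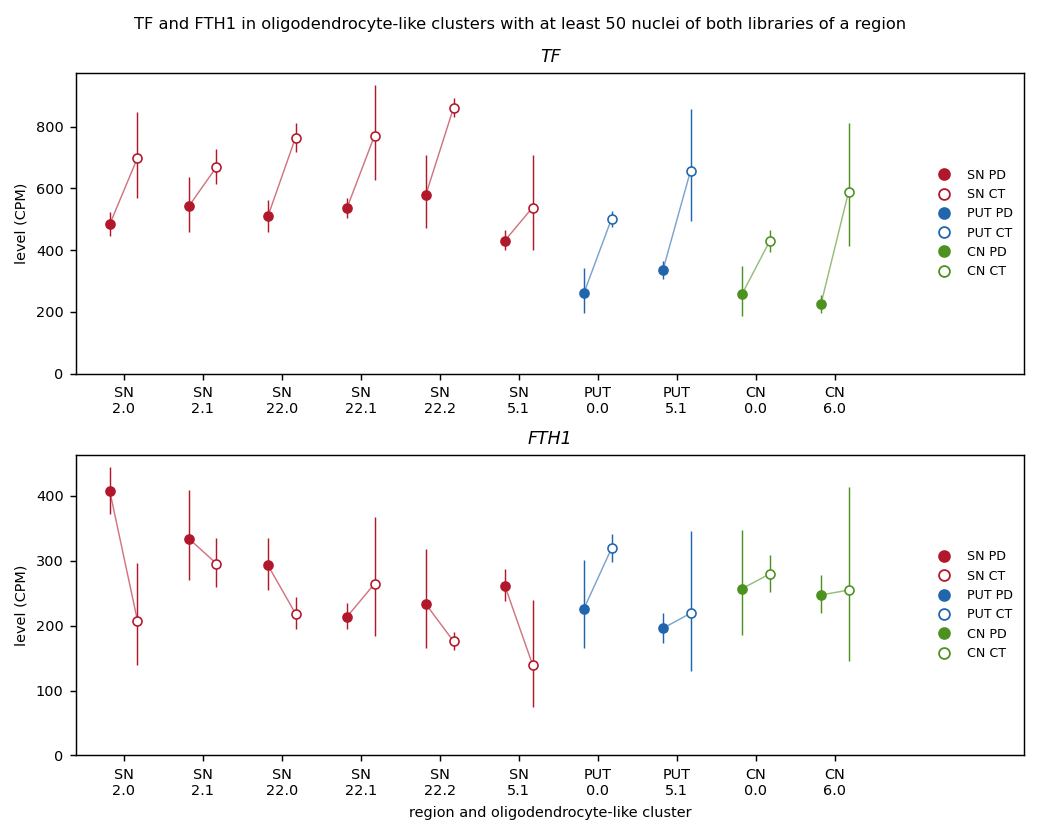
Level in CPM (vertical axis) of TF (upper panel) and FTH1 (lower panel) in the 10 combinations of region and oligodendrocyte-like cluster with at least 50 nuclei of both libraries (horizontal axis); filled points are PD, open points CT, bars are 95% counting intervals and lines join the libraries of a region. TF is lower in PD in all 10, while FTH1 is higher in PD in 5 of 6 SN clusters and lower in PD in the 4 clusters of PUT and CN. The PD over CT interval of FTH1 lies wholly on 1 side of 1 in 3 clusters of SN, 1 of PUT and 0 of CN.

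TF was at a lower level in PD in each class and region compared. All 14 PD over CT values of TF were under 1 (0.527 to 0.977), and 8 intervals lay wholly under it. Of the 7 TF values under 50 UMIs, 3 had the higher level in PD, among them precursor-like nuclei of CN with 17 UMIs (38.0 CPM) in PD and 2 UMIs (5.05 CPM) in CT. Astrocyte-like nuclei of SN, with 79 nuclei in PD too few to be compared, had 26 UMIs (218.4 CPM) in PD and 49 UMIs (173.4 CPM) in CT. Dopaminergic neuron-like nuclei held 114 TF UMIs in PD and 288 in CT, a ratio of 0.527 (0.420 to 0.657) where 6.66% of genes were past the fold downward. It was 0.646 (0.519 to 0.803) in other neuron-like nuclei of SN and 0.556 (0.331 to 0.908) in those of PUT, against backgrounds of 6.99% and 7.48%. Microglia or macrophage-like nuclei of SN had nearly the same level, 234.1 CPM in PD and 239.6 CPM in CT (0.977, 0.767 to 1.24). Precursor-like nuclei of SN had 151.3 CPM in PD and 197.0 CPM in CT (0.768, 0.558 to 1.05). These classes share the 2 libraries of their region, so their ratios are not separate evidence. Oligodendrocyte markers were present beside TF in each of them, and their part in the TF values was not tested. The 11 markers summed to 585.6 CPM in PD and 672.0 CPM in CT in dopaminergic neuron-like nuclei, with none of the 11 at 0. TF amounted to 48.5 UMIs per 1000 marker UMIs there in PD and 80.3 in CT, against 29.3 in PD and 38.0 in CT in the oligodendrocyte-like nuclei of SN.

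**Figure D2:**
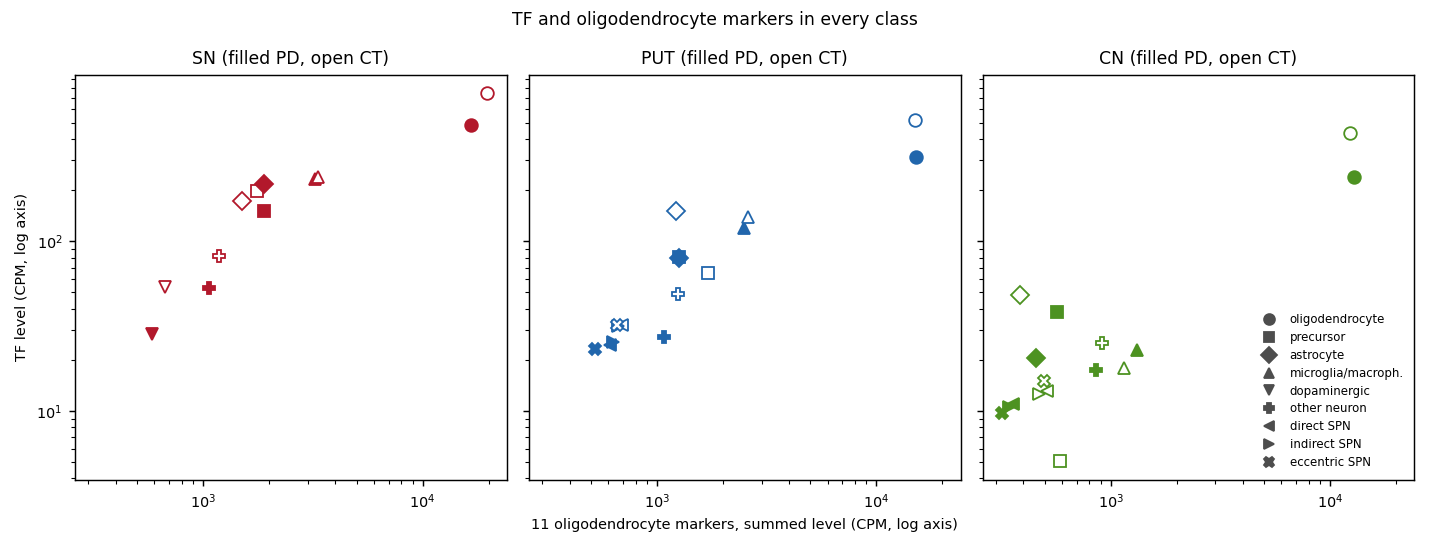
TF level in CPM (vertical log axis) against the summed level in CPM of 11 oligodendrocyte markers (horizontal log axis) in each class, 1 panel a region; symbols mark classes, filled PD and open CT. Outside the oligodendrocytes, the glia of SN lie at 151.3 to 239.6 CPM of TF, and no class of CN is above 48.4 CPM.

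TF also differed between the CT libraries of the regions. Each region in CT was 1 library, so an effect of region cannot be told apart from one of library or monkey. In CT oligodendrocyte-like nuclei the level in SN was 1.44 times that in PUT (1.372 to 1.505) and 1.73 times that in CN (1.60 to 1.87). Other glia were farther apart: precursor-like nuclei had 197.0 CPM in SN CT, 65.1 CPM in PUT CT and 5.05 CPM in CN CT, where only 2 UMIs were counted. The ratio was 3.02 (1.78 to 5.48) over PUT and 39.0 (10.5 to 326) over CN. Microglia or macrophage-like nuclei had 239.6 CPM in SN CT, 138.7 CPM in PUT CT and 17.9 CPM in CN CT, the last from 3 UMIs, with ratios of 1.73 (1.23 to 2.48) and 13.4 (4.50 to 65.6). Astrocyte-like nuclei differed over CN (3.58, 2.23 to 5.85) but not past the fold over PUT (1.15, 0.730 to 1.81). TF thus gave 6 of the 8 member values past the fold upward between regions, out of 36 compared (22.2%, against 15.7% of all gene by class values). By class, all genes past the fold upward were 11.6% in precursors and 13.1% in microglia or macrophages over PUT. Over CN they were 17.7% in oligodendrocytes, 11.7% in precursors, 21.2% in astrocytes and 17.2% in microglia or macrophages. The summed oligodendrocyte markers ran the same way in these 3 classes, at 3333 CPM in SN CT, 2594 CPM in PUT CT and 1152 CPM in CN CT in microglia or macrophage-like nuclei. They were 1764, 1706 and 586.0 CPM in precursor-like nuclei and 1511, 1220 and 386.9 CPM in astrocyte-like nuclei of SN CT, PUT CT and CN CT. Their part in the TF values was not tested.

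TFRC, the receptor, was low in each of the 9 classes measured per library and highest in small pools of vessel cells. Its median level ran from 17.1 CPM in oligodendrocyte-like nuclei to 36.8 CPM in eccentric SPN-like nuclei, a small SPN class apart from the direct and indirect pathways, and the ranges of all neighbouring classes overlapped. The SPN-like nuclei of PD and CT lay mostly in different clusters. Most direct pathway nuclei were in cluster 18.2 in PD and 18.0 in CT in PUT, and in 4.2 in PD and 4.0 in CT in CN. Most indirect pathway nuclei were in 8.3 in PD and 8.0 in CT in PUT, and in 9.3 in PD and 9.0 in CT in CN. Most eccentric nuclei of CN were in 12.5 in PD and in a different one in CT, and those of PUT in 12.3 in both. In direct pathway SPN-like nuclei it was 30.6 CPM in PD and 24.5 CPM in CT in PUT (1.25, 1.02 to 1.54), but 21.4 CPM in PD and 28.5 CPM in CT in CN (0.753, 0.635 to 0.892). Indirect pathway SPN-like nuclei had 28.0 CPM in PD and 22.8 CPM in CT in PUT (1.23, 1.01 to 1.497), and 24.2 CPM in PD and 26.3 CPM in CT in CN (0.921, 0.772 to 1.10). The 1 TFRC value past the fold of 11 compared was in other neuron-like nuclei of CN, 33.2 CPM in PD and 50.5 CPM in CT (0.658, 0.455 to 0.944), with 10.9% of genes past the fold downward. It was no longer past the fold relative to the median gene, with no doublet removal or with mixed clusters added. Vessel cells were too few to compare: over all 6 libraries together, 86 endothelial-like nuclei held 31 TFRC UMIs (266.3 CPM, 180.9 to 378.0) and 84 pericyte or smooth muscle-like nuclei held 26 (167.9 CPM, 109.7 to 246.0). Both were above 50.5 CPM, the highest TFRC level of the 9 classes in any library, and 57 fibroblast-like nuclei had 90.4 CPM from 7 UMIs.

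SLC11A2, which carries iron out of the endosome and across the cell membrane, had its highest median level, 103.1 CPM, in microglia or macrophage-like nuclei, with a range that overlapped that of oligodendrocyte-like nuclei. In PUT CT it was lower in them than in oligodendrocyte-like (74.2 CPM) and precursor-like nuclei (65.1 CPM). Microglia or macrophage-like nuclei had 165.0 CPM in SN PD and 127.8 CPM in SN CT, 99.04 CPM in PUT PD and 51.6 CPM in PUT CT, and 107.1 CPM in CN PD and 65.6 CPM in CN CT. Over the whole class PD was above CT in each region, and the level in SN CT was above both striatal PD libraries. In SN, 66.9% of the PD nuclei lay in cluster 11.1 (181.5 CPM) and 92.8% of the CT nuclei in cluster 14.1. Within cluster 14.1 the order was the other way, with 12 UMIs (108.2 CPM) in PD and 85 UMIs (131.0 CPM) in CT (0.826, 0.411 to 1.52). The ratio was 1.29 (0.948 to 1.76) in SN, 1.92 (1.03 to 3.72) in PUT and 1.63 (0.826 to 3.51) in CN. PUT rested on 34 UMIs in PD and 16 in CT, and CN on 42 in PD and 11 in CT. The backgrounds upward were 9.72% in PUT and 12.1% in CN, and the CN value was no longer past the fold with no doublet removal. Of the 15 SLC11A2 values compared, 13 were over 1, among them oligodendrocyte-like nuclei (73.5 CPM in PD and 61.4 CPM in CT; 1.20, 1.06 to 1.35) and other neuron-like nuclei of SN (54.2 CPM in PD and 37.1 CPM in CT; 1.46, 1.12 to 1.92). Between regions in CT, microglia or macrophage-like nuclei of SN had 2.48 times the level of PUT (1.44 to 4.52) and 1.95 times that of CN (1.04 to 4.04).

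FTH1, the ferritin heavy chain, divided glia from neurons. Its levels were 109.9 to 425.9 CPM over the 4 glial classes and all libraries, and 36.2 to 98.9 CPM over the 5 neuronal classes, with no overlap. Among these classes, microglia or macrophage-like nuclei had the highest median, 285.0 CPM, with 425.9 CPM in SN PD and 310.8 CPM in SN CT. Their range overlapped that of oligodendrocyte-like nuclei. Dopaminergic neuron-like nuclei had the lowest, 36.2 CPM in PD and 40.8 CPM in CT, below every other class and library. Pooled over the 6 libraries, FTH1 was 413.2 CPM in T or NK lymphocyte-like (32 UMIs) and 316.4 CPM in pericyte or smooth muscle-like nuclei (49 UMIs). It was 258.2 CPM in fibroblast-like and 171.8 CPM in endothelial-like nuclei, each from 20 UMIs. These levels are shares of UMIs and not amounts per nucleus. Dopaminergic neuron-like nuclei had median depths of 14133 UMIs in PD and 14218 UMIs in CT, and oligodendrocyte-like nuclei of SN 1075 and 1156 UMIs.

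The direction of FTH1 differed between regions. In oligodendrocyte-like nuclei of SN it was 267.5 CPM in PD and 200.1 CPM in CT, a ratio of 1.34 (1.25 to 1.43). In PUT it was 175.3 CPM in PD and 283.0 CPM in CT (0.619, 0.562 to 0.681), and in CN 197.4 CPM in PD and 265.7 CPM in CT (0.743, 0.661 to 0.836). The PUT value was past the fold, but not with nuclei of at least 1000 genes or after thinning (log2 ratios of -0.45 and -0.50, against -0.69). Within clusters held by both libraries, FTH1 was higher in PD in 5 of 6 comparisons of SN, 3 with intervals wholly over 1. The highest ratio was in cluster 2.0 (406.6 CPM in PD and 207.4 CPM in CT; 1.96, 1.36 to 2.94). In the 4 comparisons of PUT and CN it was lower in PD, with ratios of 0.708 to 0.971. The 1 interval wholly under 1 was in PUT (cluster 0.0; 0.708, 0.515 to 0.953), and cluster 5.1 of PUT had 0.895 (0.556 to 1.53). Both CN ratios were nearer 1 than that of the class, at 0.919 (0.652 to 1.27) and 0.971 (0.587 to 1.72). Precursor-like nuclei showed the same order, with 215.8 CPM in PD and 154.3 CPM in CT in SN (1.399, 1.03 to 1.90) and 129.8 CPM in PD and 194.5 CPM in CT in CN (0.667, 0.466 to 0.951). Microglia or macrophage-like nuclei had ratios of 1.37 (1.13 to 1.66) in SN, 0.765 (0.571 to 1.02) in PUT and 0.909 (0.615 to 1.37) in CN.

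In the striatal projection neurons, whose PD and CT nuclei lay mostly in different clusters except for the eccentric class of PUT, FTH1 was lower in PD in all 6 values, by less than the fold. Direct pathway SPN-like nuclei had 61.1 CPM in PD and 74.6 CPM in CT in PUT (0.819, 0.718 to 0.933) and 59.3 CPM in PD and 69.7 CPM in CT in CN (0.850, 0.766 to 0.943). Indirect pathway SPN-like nuclei had ratios of 0.752 (0.665 to 0.850) in PUT and 0.819 (0.734 to 0.914) in CN, and both intervals of eccentric SPN-like nuclei included 1. The median log2 ratio of all genes was -0.14 in direct and -0.15 in indirect pathway SPN-like nuclei of CN, and within 0.1 of 0 in each of the other comparisons of PD with CT. Dopaminergic neuron-like nuclei had for FTH1 a ratio of 0.885 (0.713 to 1.10).

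SLC40A1, the exporter, was rare outside a few classes. Its median level was 26.0 CPM in microglia or macrophage-like and 25.8 CPM in dopaminergic neuron-like nuclei, 17.0 CPM in precursor-like and 8.13 CPM in other neuron-like nuclei. Pooled over the 6 libraries, pericyte or smooth muscle-like nuclei had 83.9 CPM (13 UMIs), fibroblast-like nuclei 64.6 CPM (5 UMIs) and endothelial-like nuclei 51.5 CPM (6 UMIs). It was 0.53 CPM in direct and 0.50 CPM in indirect pathway SPN-like nuclei, and eccentric SPN-like nuclei held 0 UMIs in all 4 libraries. A count of 0 allows up to 2.91 CPM in CN PD, 3.76 CPM in CN CT, 6.91 CPM in PUT PD and 5.33 CPM in PUT CT. Only 3 of 21 PD over CT values reached 50 UMIs.

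The widest PD over CT ratio of any member was that of SLC40A1 in microglia or macrophage-like nuclei of SN, at 174.6 CPM in PD and 26.1 CPM in CT. These were 91 UMIs in 546 nuclei of PD and 18 UMIs in 692 nuclei of CT, a ratio of 6.68 (3.998 to 11.8) in a class where 14.8% of genes were past the fold upward. The striatal levels stood at 23.3 CPM in PUT PD and 25.8 CPM in PUT CT, and at 33.2 CPM in CN PD and 11.9 CPM in CN CT, each from 13 UMIs or fewer. SN PD thus stood apart from the other 5 libraries. The PD and CT nuclei lay in different clusters: 365 of 546 PD nuclei were in cluster 11.1 and 642 of 692 CT nuclei in cluster 14.1. Of the 91 UMIs, 89 were in cluster 11.1 (252.4 CPM, 202.7 to 310.5). In cluster 14.1 the order was the other way, with 1 UMI in 115 PD nuclei (9.02 CPM) and 17 UMIs in 642 CT nuclei (26.2 CPM; ratio 0.344, 0.00823 to 2.20).

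Cluster 11.1 also differed in markers. Border macrophage markers, which mark macrophages of vessels and meninges, summed to 1534 CPM in cluster 11.1 (SN PD), against 622.1 CPM in PD and 713.5 CPM in CT in cluster 14.1. F13A1 among them was at 479.2 CPM in cluster 11.1, against 9.02 CPM in PD and 18.5 CPM in CT in cluster 14.1. CD163 was at 178.6 CPM, against 18.0 CPM in PD and 50.9 CPM in CT. MRC1 was nearer, at 167.3 CPM, against 99.2 CPM in PD and 155.7 CPM in CT. In cluster 14.0, which held most such nuclei of PUT and CN, MRC1 was at 329.9 to 390.9 CPM and CD163 at 137.8 to 178.5 CPM. F13A1 was at 0 to 32.7 CPM there, and the 6 markers summed to 910.6 to 1086 CPM. Microglia markers summed to 3805 CPM in cluster 11.1 and 5049 CPM in PD and 6262 CPM in CT in cluster 14.1. Over the whole class, none of the 6 border macrophage markers was at 0 in either SN library. Their summed level was 1280 CPM in PD and 742.1 CPM in CT, with 3 of 5 compared past the fold upward. That of the microglia markers was 4200 CPM in PD and 6186 CPM in CT, with 3 of 8 past it downward. The part of this mix in the SLC40A1 value was not tested, and a cluster found almost wholly in 1 library may be that library rather than a type.

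**Figure D3:**
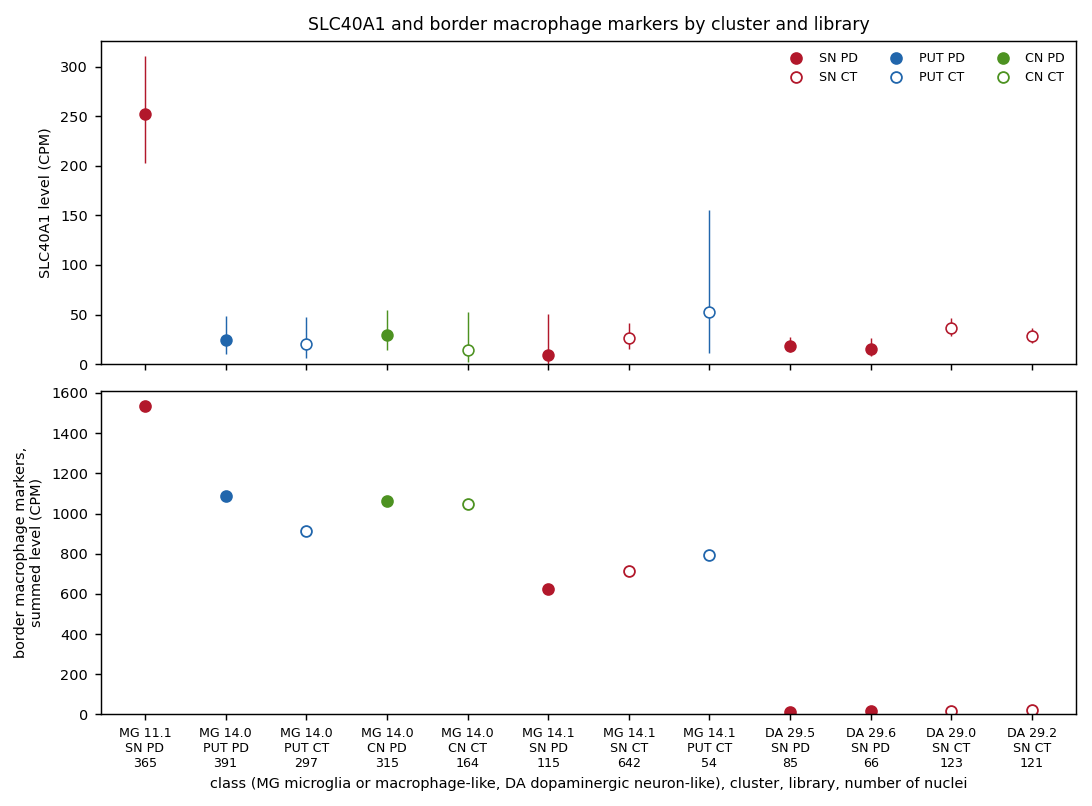
SLC40A1 level with its 95% counting interval (upper panel) and summed level of 6 border macrophage markers (lower panel), both in CPM, in each cluster and library with at least 50 microglia or macrophage-like (MG) or dopaminergic neuron-like (DA) nuclei; filled points are PD, open points CT. Cluster 11.1 of SN PD stands at 252.4 CPM for SLC40A1 and has the highest border macrophage marker level, 1534 CPM.

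SLC40A1 went the other way in dopaminergic neuron-like nuclei. They held 82 UMIs (20.4 CPM) in 278 nuclei of PD and 166 UMIs (31.1 CPM) in 358 nuclei of CT, a ratio of 0.658 (0.498 to 0.862). Both levels were above those of other neuron-like nuclei in the same libraries, 9.50 CPM in PD and 7.93 CPM in CT, and of oligodendrocyte-like nuclei, 5.61 CPM in PD and 4.50 CPM in CT. No dopaminergic cluster held 50 nuclei of both libraries. The 2 PD clusters of at least 50 nuclei, with 85 and 66 nuclei, had 18.3 and 15.02 CPM. The 2 CT clusters, with 123 and 121 nuclei, had 36.7 and 28.1 CPM. Clusters of 1 library are not replicates, and these values are given without counting intervals for a part of the class. The clusters also differed in ALDH1A1, a marker of a subset of dopamine neurons, with 248.3 and 45.1 CPM in the PD clusters and 536.6 and 415.9 CPM in the CT clusters, and its part in the SLC40A1 value was not tested. TF and SLC40A1 were 2 of the 7 members past the fold downward in this class, and none was past it upward, against 6.66% and 7.43% of all genes.

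Both iron regulatory proteins were measured in all 9 classes. Among these 9, ACO1 had its highest median in other neuron-like nuclei (86.6 to 107.6 CPM) and its lowest in oligodendrocyte-like nuclei (29.96 to 36.7 CPM). Pooled over the 6 libraries, fibroblast-like nuclei had 154.9 CPM of ACO1 (12 UMIs) and pericyte or smooth muscle-like nuclei 51.7 CPM (8 UMIs). T or NK lymphocyte-like nuclei had 25.8 CPM and endothelial-like nuclei 17.2 CPM, each from 2 UMIs. No interval of the 16 PD over CT values of ACO1 lay wholly on either side of 1. Dopaminergic neuron-like nuclei had 64.1 CPM in PD and 65.0 CPM in CT (0.986, 0.836 to 1.16). The values past the fold were precursor-like nuclei of SN (37.8 CPM in PD and 61.3 CPM in CT; 0.617, 0.322 to 1.14) and eccentric SPN-like nuclei of PUT (92.1 CPM in PD and 58.7 CPM in CT; 1.57, 0.966 to 2.57). The backgrounds were 7.02% and 7.33%, and both values were within the fold with no doublet removal. IREB2 was highest in microglia or macrophage-like nuclei, at 169.0 to 262.6 CPM, and its lowest level there was above that of the other 8 classes measured per library, except precursors of PUT PD (181.1 CPM). Pooled over the 6 libraries, T or NK lymphocyte-like nuclei had 245.3 CPM and endothelial-like nuclei 214.8 CPM. Precursor-like nuclei had more IREB2 in PD, at 140.2 CPM in PD and 94.8 CPM in CT in SN (1.48, 1.01 to 2.18), 181.1 CPM in PD and 97.7 CPM in CT in PUT (1.85, 1.13 to 3.13), and 165.6 CPM in PD and 133.9 CPM in CT in CN (1.24, 0.858 to 1.79). The PUT value was past the fold, where 7.02% of genes were. In microglia or macrophage-like nuclei of PUT, IREB2 was 169.0 CPM in PD and 254.9 CPM in CT (0.663, 0.464 to 0.942; background 8.42%), within the fold with no doublet removal.

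**Figure D4:**
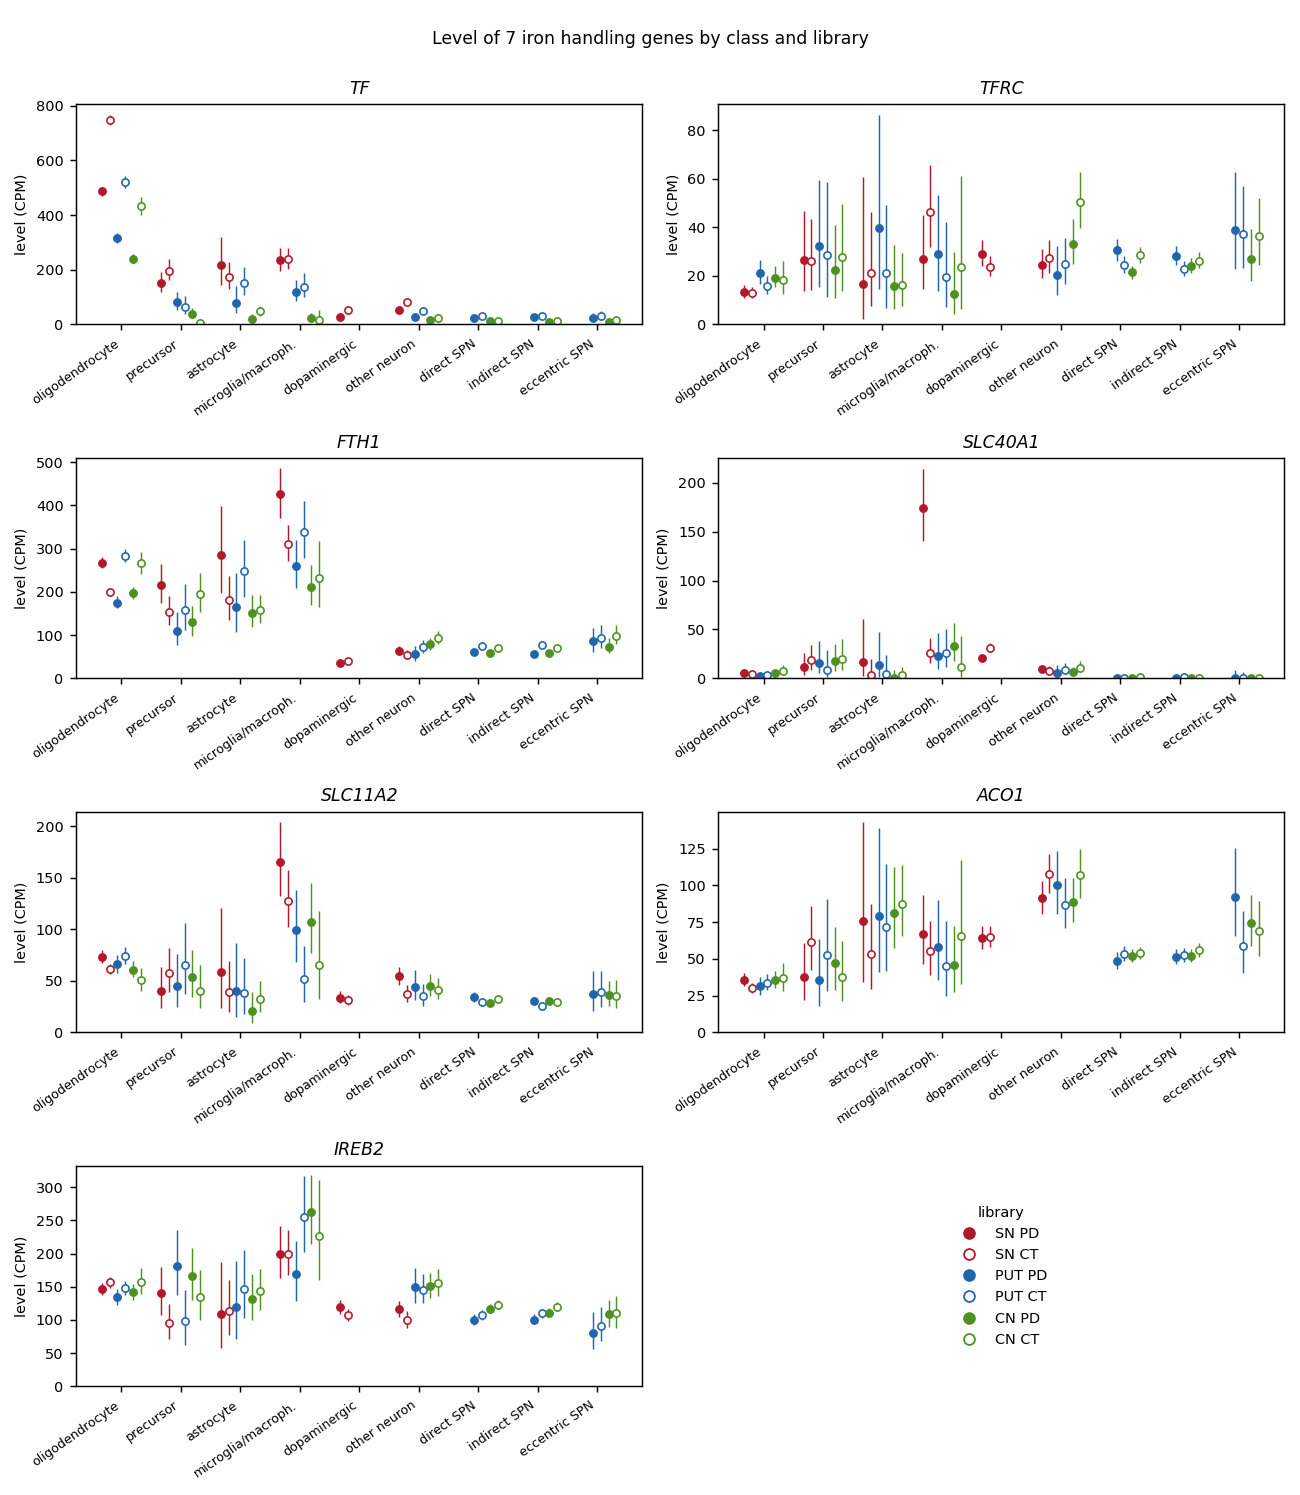
Level in CPM (vertical axis, linear, from 0) of each of the 7 genes by class (horizontal axis) and library; filled points are PD, open points CT, colours mark regions and bars are 95% counting intervals. TF stands highest in oligodendrocyte-like nuclei (240.8 to 748.7 CPM), FTH1 separates glia from neurons, and SLC40A1 has its highest point in microglia or macrophage-like nuclei of SN PD (174.6 CPM).

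Over the 7 genes, 101 of 147 PD over CT values were compared, and 46 had under 50 UMIs, 18 of them for SLC40A1. Past the fold, 1 of 30 values in SN was higher and 5 lower in PD (3.33% and 16.7%, against 7.43% and 8.29% of all gene by class values). In PUT 3 of 34 were higher and 4 lower (8.82% and 11.8%, against 5.86% and 9.59%), and in CN 1 of 37 was higher and 2 lower (2.70% and 5.41%, against 4.80% and 12.2%). Of the 11 lower values, 6 were of TF. The median log2 ratio of the values was 0.13 in SN, -0.14 in PUT and -0.12 in CN. Between regions in CT, 2 of 36 values were past the fold downward (5.56%, against 15.5%), both over CN. These were SLC40A1 in oligodendrocyte-like nuclei (0.585, 0.307 to 1.19; background 18.6%) and ACO1 in astrocyte-like nuclei (0.610, 0.320 to 1.10; background 17.7%).

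**Figure D5:**
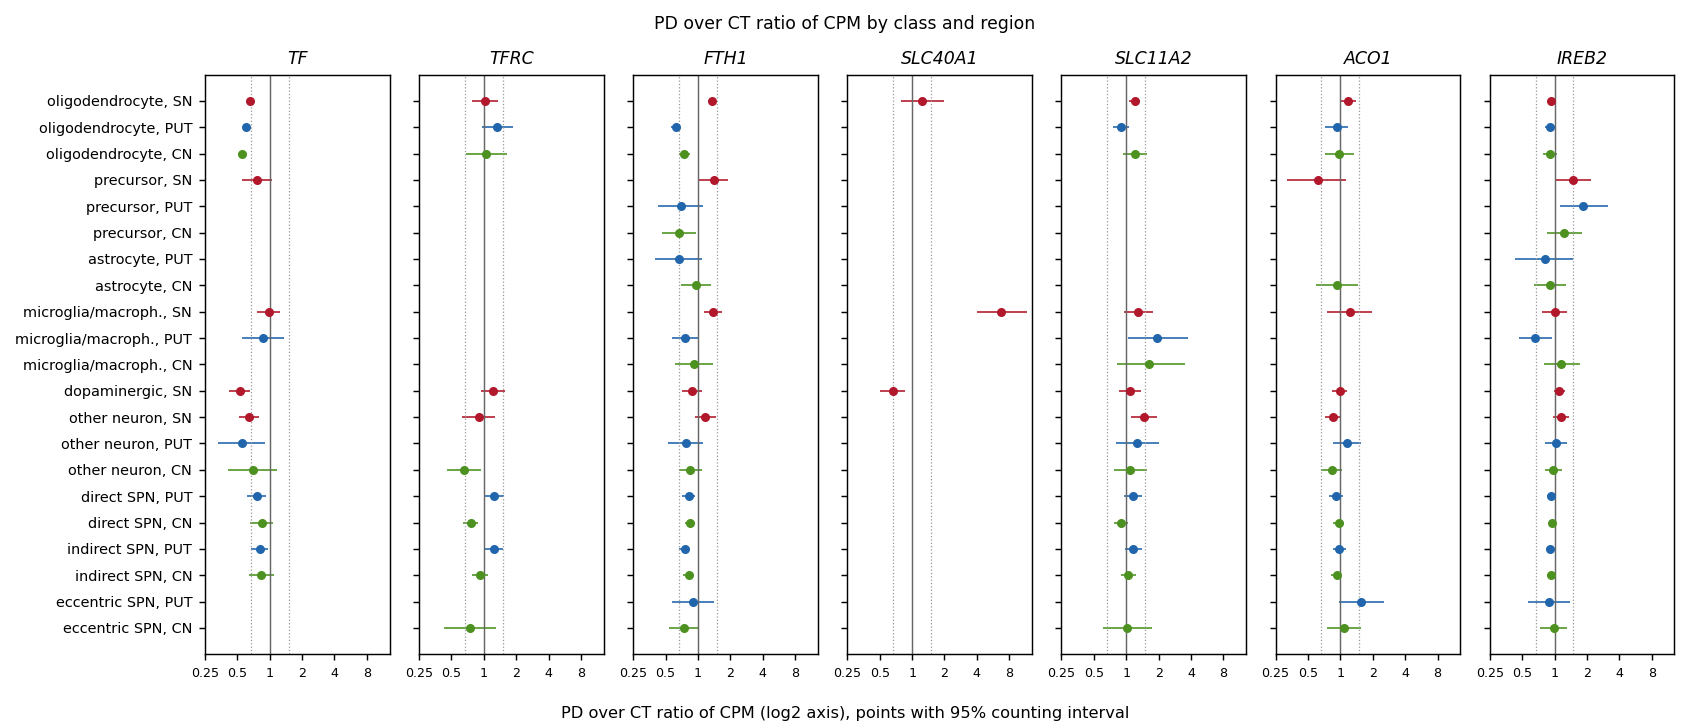
PD over CT ratio of CPM (horizontal log2 axis) for each gene (panels) in each class and region compared (rows), with 95% counting intervals; the solid line marks no difference and the dotted lines 1.5-fold. All 14 TF points lie left of 1, SLC40A1 in microglia or macrophage-like nuclei of SN lies at 6.68, and FTH1 in oligodendrocyte-like nuclei lies right of 1 in SN and left of it in PUT and CN.

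Genes with the most similar profile over 43 combinations of class and library, among 9208 genes, were listed for each member by Pearson r of log2(CPM + 1). For TF they were MOBP (r = 0.93), CNP (0.92) and CRYAB (0.92), of which MOBP and CNP are myelin genes used here as markers. For FTH1 they were PTMA (0.94), ELF1 (0.93) and SCAF11 (0.92). SLC40A1 was most like ABCB1 (0.88), SH3RF3 (0.86) and TMCC3 (0.86), SLC11A2 like ACER3 (0.89), TNIP1 (0.85) and RASSF3 (0.85), and IREB2 like CHD1 (0.85), HNRNPC (0.84) and TRAPPC8 (0.84). ACO1 reached 0.79 with AIRE, 0.78 with MROH1 and 0.77 with STAU2, and TFRC 0.63 with ZBTB46, 0.62 with PPP1R13B and 0.61 with STAMBPL1. The profiles share libraries, depths and classes, so these values are descriptions.

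A wider list of 63 genes of iron, haem and lipid peroxidation, 60 of them in the annotation, was set beside the members. In oligodendrocyte-like nuclei of SN, 4 of 48 compared were higher and 5 lower in PD, where 7.21% and 10.0% of all genes were past the fold, and the list's median log2 ratio was -0.09 against -0.03 for all genes. GCH1, an enzyme of tetrahydrobiopterin synthesis listed under ferroptosis, was 20.9 CPM in PD and 4.83 CPM in CT (4.33, 3.07 to 6.201). SLC39A14, a transporter of zinc, manganese and iron, was 11.8 CPM in PD and 5.82 CPM in CT (2.02, 1.42 to 2.91). FLVCR2, once described as a haem importer and since as a choline transporter, was 12.3 CPM in PD and 37.0 CPM in CT (0.333, 0.261 to 0.423), and STEAP3, an endosomal ferrireductase, 2.94 CPM in PD and 6.70 CPM in CT (0.440, 0.254 to 0.732). FLVCR2 in CT was 7.84 times as high in SN as in PUT (5.10 to 12.7), and in CN CT it had 3 UMIs.

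Striatal oligodendrocyte-like nuclei had 4 of 43 wider genes higher and 11 lower in PUT (backgrounds 5.31% and 14.3%) and 1 of 37 higher and 7 lower in CN (5.71% and 12.5%). STEAP2, another metalloreductase, was lower in both, at 11.6 CPM in PD and 33.2 CPM in CT in PUT (0.349, 0.242 to 0.493) and 22.6 CPM in PD and 47.3 CPM in CT in CN (0.477, 0.349 to 0.652). SLC7A11, the cystine importer, was 27.1 CPM in PD and 53.6 CPM in CT in PUT (0.505, 0.395 to 0.640). In microglia or macrophage-like nuclei of SN, 1 of 18 was higher and 4 lower (14.8% and 11.3%). BLVRA, which reduces biliverdin from haem breakdown, had 43 UMIs in PD and 7 in CT (8.12, 3.62 to 21.4), CPOX of haem synthesis a ratio of 0.355 (0.219 to 0.557) and ACSL4, an acyl-CoA synthetase, 0.570 (0.455 to 0.711). These PD nuclei lay mostly in cluster 11.1 and the CT nuclei in cluster 14.1, and ratios within a cluster were not computed for the wider list. In dopaminergic neuron-like nuclei 0 of 41 were higher and 2 lower, against 7.43% and 6.66% of all genes. GLRX5, a carrier of iron-sulphur clusters, was 9.22 CPM in PD and 20.04 CPM in CT (0.460, 0.308 to 0.675), and the other was CP, a ferroxidase (0.644, 0.402 to 1.01).

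In direct pathway SPN-like nuclei, 4 of 44 wider genes were higher and 3 lower in PUT (5.19% and 9.05%), and 2 of 47 higher and 4 lower in CN (3.25% and 13.7%). Indirect pathway SPN-like nuclei had 4 of 46 higher and 6 lower in PUT (5.30% and 8.63%) and the same counts in CN (3.68% and 14.1%). BMP6, a secreted regulator of hepcidin, was higher in PD in all 4 comparisons, each between nuclei that lay mostly in different clusters. The greatest ratio was in direct pathway nuclei of CN, 22.7 CPM in PD and 7.51 CPM in CT (3.01, 2.35 to 3.90), and the other 3 ratios were 1.95 to 2.44. NARF, a binder of prelamin A with a structure like that of iron-only hydrogenases, was also higher in all 4 (1.55 to 1.86). CP, which works with ferroportin, was 5.29 CPM in PD and 12.8 CPM in CT in direct pathway nuclei of CN (0.413, 0.301 to 0.561) and 5.97 CPM in PD and 12.3 CPM in CT in indirect pathway nuclei of CN (0.486, 0.354 to 0.664).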

How the data were processed

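The deposited values are UMI counts per gene and barcode, as the authors wrote them with Cell Ranger 7.0.1, per the file headers, with no normalization. The submitters' processing notes name hg38, but gene identifiers are of Macaca fascicularis, and the extract protocol names Macaca_mulatta. The group of a matrix comes from its file name. Libraries were made from nuclei (10x 3′ v3).

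A nucleus was kept if it had 500 genes or more, no more than 5% of UMIs from mitochondria, and a Scrublet doublet score of 0.25 or less (expected rate 0.06). In each library 1.66% to 5.63% of barcodes lay above that score. Counts were scaled to 10000, and 2000 variable genes, 30 principal components, 15 neighbours and Leiden resolution 1.0 were used (scanpy 1.11.5), then clusters of at least 60 nuclei were divided again (1000 genes, resolution 0.5), with no batch or free RNA correction. Clusters were named from 155 markers (151 annotated). Mixed clusters, at 4.11% to 10.2% of nuclei in a library, and unnamed ones (0.227% to 1.46%) stayed out of classes.

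UMIs were summed by class and library. Intervals are exact (Poisson for levels, Clopper-Pearson for shares, conditional binomial for ratios; scipy 1.17.1), at 95%. Log2 ratios had 0.5 UMI added. The self-test of these steps on simulated data passed. All 7 members are named throughout. Of the wider list, the rule named at most 2 genes a direction and comparison, those past 1.5-fold with an interval on 1 side of 1, ranked by the bound nearest 1, and a part of these is given. F13A1 was singled out after its values were seen, and MRC1 and CD163 were set beside it. Members, lists and markers were chosen with earlier results of these data known. Sequences were not used here.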

Additional observations from a re-analysis of the deposited data

Results flagged for a closer look

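The same contrast, PD over CT, had counting intervals on opposite sides of 1 in different regions for 3 combinations of gene and class, and the difference between regions was not tested in any of them. FTH1 in oligodendrocyte-like nuclei had a ratio of 1.34 in SN, 0.619 in PUT and 0.743 in CN. Within the clusters held by both CN libraries it had ratios of 0.919 and 0.971, with intervals that included 1. FTH1 in oligodendrocyte precursor-like nuclei had a ratio of 1.4 in SN and 0.667 in CN. TFRC in direct pathway SPN-like nuclei had a ratio of 1.25 in PUT and 0.753 in CN. Within a combination each library enters 1 ratio, but the 3 combinations share libraries and are not separate evidence. With 1 library a group the spread between monkeys is not known.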

How the results depend on the processing

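As reported, 1 value in SN, 3 in PUT and 1 in CN were past 1.5-fold higher in PD and 5, 4 and 2 lower, and between regions in CT 8 were higher and 2 lower. With at least 200 UMIs, 0 in SN, 0 in PUT and 0 in CN were higher, 2 in PUT and 1 in CN lower, and between regions 2 higher and 0 lower. At 2-fold, 0 were lower in SN, 0 higher and 0 lower in PUT and in CN, and between regions 5 higher and 0 lower. With at least 1000 genes a nucleus, PUT had 0 higher and 2 lower, CN 0 and 1, and the regions 0 and 1. With no doublet removal, CN had 0 higher. With iron genes allowed in clustering, 1 was lower between regions. With mixed clusters added, 3 in SN were higher, 9 in PUT lower and 0 lower between regions. With nuclei thinned to 1000 UMIs, SN had 2 higher and 2 lower, PUT 1 and 2, CN 0 and 1, and the regions 3 and 0. The cause of these shifts was not tested, except that the UMI minimum, the gene minimum and thinning left fewer values to compare. TF in oligodendrocyte-like nuclei stayed past 1.5-fold in each region under every alternative that gave a value at that fold, with log2 ratios of -0.69 to -0.59 in SN, -0.74 to -0.65 in PUT and -0.85 to -0.77 in CN, as did TF (-0.95 to -0.92) and SLC40A1 (-0.63 to -0.59) in dopaminergic neuron-like nuclei. Single oligodendrocyte-like clusters were not among these alternatives, and in those shared by both SN libraries TF had ratios of 0.666 to 0.810, mostly within the fold. SLC40A1 in SN microglia or macrophage-like nuclei had log2 ratios of 2.49 to 2.99 but was reversed in cluster 14.1 alone (-0.996), an alternative added after the data were seen. No paired analysis was possible because the matrices carry no replicate numbers, and for the same reason no sample could be left out.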
